A study of Psychotria grandis and Psychotria costivenia and Psychotria revoluta with 6 samples.

Results

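The constant contigs were assembled leaf transcripts of Psychotria whose level was nearly the same in 6 plants of 3 species. They were chosen by their values: CPM (the reads of a contig scaled to a library total of 1000000) of at least 10 in every library, and a highest-to-lowest CPM ratio over the 6 libraries of at most 1.3. The rule kept 243 contigs, which were 0.538% of the 45143 contigs listed and 3.01% of the 8064 contigs with at least 10 CPM in every library. Because the rule used every library, the values of these contigs are a description, and the fold changes, p-values and calls given for them from the model over all contigs support no difference or likeness between species.

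The leaves came from wild shrubs of gallery forest on serpentine soil in Cuba, with 2 plants per species and 1 mRNA library per plant. P. grandis (both plants from Mil Cumbres, 27 June 2014) and P. costivenia (both plants from La Coca, 12 June 2014) are nickel hyperaccumulators per the labels. P. revoluta (Mil Cumbres, plant 1 dated 27 July 2014 and plant 2 dated 27 June 2014) is the non-accumulator. Species, nickel phenotype and, for P. costivenia, locality and collection date cannot be told apart. All reads were counted on contigs assembled from P. grandis, so that a contig at equal CPM had to be matched by the reads of all 3 species.

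Serpentine soils are rich in nickel and poor in several nutrients, and hyperaccumulators are plants whose leaves store metal in amounts that would harm other species. Transcripts that keep their level across plants and conditions are used in plant work as internal references, against which other transcripts are measured. Such transcripts often come from genes that every cell needs, such as those of protein turnover, the cytoskeleton and basic translation. The deposited tables name contigs by a running number only, so the genes behind the 243 contigs were not identified, leaf markers could not be looked up, and a list of common plant reference genes could not be applied. Contig numbers are given here in place of gene names.

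Library totals ran from 45676087 to 57907913 counts, so the limit of 10 CPM stood for 457 to 579 counts. In the P. revoluta tables the header of the count column has another species prefix than the label, and the label was followed. P. grandis plant 1 stood apart from the other 5 libraries. It had reads on 45142 of the 45143 contigs, against 35362 to 38589 in the others. The 8064 contigs with at least 10 CPM in every library took 72.3% of its counts, against 79.9% to 82.9% in the others. What set this library apart was not tested. The number of constant contigs is therefore given with and without it, and other counts include it unless stated. In bulk leaf RNA, fewer cells of a type and less RNA per cell cannot be told apart.

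Few contigs were this steady. Among the 8064 contigs, the median highest-to-lowest ratio was 2.46, and 2684 contigs (33.3%) stayed within 2-fold. At a limit of 1.5 there were 834 contigs (10.3%), at 1.2 there were 76 (0.942%), and at 1.1 there were 4 (0.0496%). The 243 constant contigs were thus the lower edge of a continuous distribution and not a separate group. On both sides of the limit the density was equal, with 25 contigs between 1.29 and 1.3 and 25 between 1.3 and 1.31. The last contig inside, Pgra_v1_contig_7944, had a ratio of 1.2996, with 16.1 and 14.5 CPM in P. grandis, 14.4 and 14.8 CPM in P. costivenia, and 12.8 and 12.4 CPM in P. revoluta. The first outside, Pgra_v1_contig_20657, had a ratio of 1.3002, with 16.7 and 18.1 CPM in P. grandis, 19.2 and 16.8 CPM in P. costivenia, and 21.8 and 19.2 CPM in P. revoluta. At the limit on level, Pgra_v1_contig_21423 was inside with 10.3 CPM in its lowest library, and Pgra_v1_contig_10453 was outside with 9.97 CPM.

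**Figure D1:**
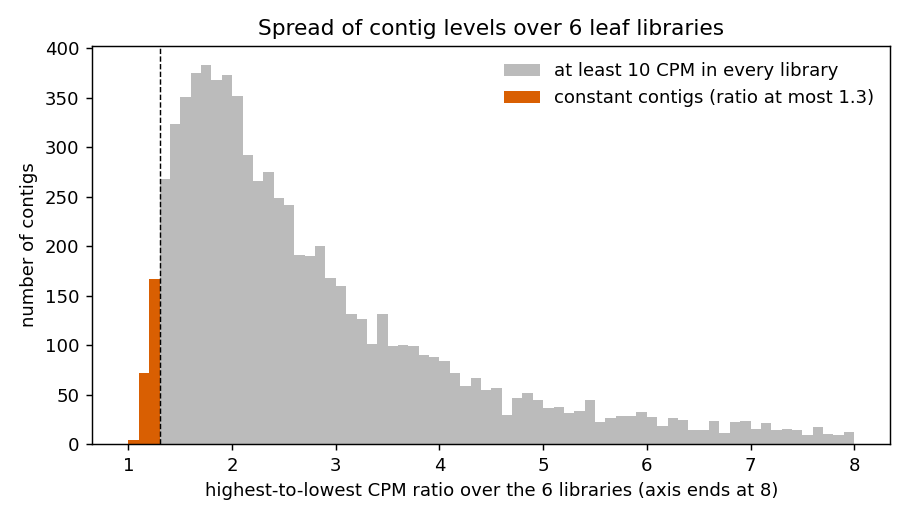
Number of contigs (vertical axis) by highest-to-lowest CPM ratio over the 6 libraries (horizontal axis) for the 8064 contigs with at least 10 CPM in every library. The 243 constant contigs (orange) lie left of the dashed line at 1.3, on the rising edge of the distribution, and 599 contigs with a ratio over 8 are beyond the axis.

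The constant contigs were of middling abundance. Their mean level ran from 11.6 to 414 CPM with a median of 37.0 CPM, against a median of 45.0 CPM over the 8064 contigs, and 24 of them reached 100 CPM. Constancy was rarer the higher the level. Of contigs with a mean of 20 to 50 CPM, 110 of 3685 (2.99%) were constant, and of those of 50 to 100 CPM, 58 of 2134 (2.72%). Of contigs of 100 to 200 CPM, 19 of 945 (2.01%) were constant, of those of 200 to 500 CPM, 5 of 356 (1.40%), and above 500 CPM, 0 of 188. In the lowest class, with a mean of 10 to 20 CPM, 51 of 756 contigs (6.75%) were constant, but there the floor of 10 CPM itself limits how far a contig can vary. The median ratio of all contigs rose in the same order, from 1.81 in the lowest class to 9.10 above 500 CPM. Together the 243 contigs took 1.24% to 1.29% of the counts of each library.

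The 10 most abundant constant contigs had means of 181 to 414 CPM. Pgra_v1_contig_1437 led with 413 and 395 CPM in P. grandis, 467 and 411 CPM in P. costivenia, and 419 and 375 CPM in P. revoluta. P. costivenia plant 1 was its highest library and P. revoluta plant 2 its lowest, and the species overlapped. Pgra_v1_contig_1844 showed 435 and 417 CPM in P. grandis, 405 and 393 CPM in P. costivenia, and 367 and 411 CPM in P. revoluta. Its mean of 405 ± 22.8 CPM (SD, n = 6 plants) had a coefficient of variation (CV, the SD as a percentage of the mean) of 5.65%.

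The third, Pgra_v1_contig_1740, showed 221 and 219 CPM in P. grandis, 217 and 227 CPM in P. costivenia, and 241 and 258 CPM in P. revoluta. Both P. revoluta plants lay above the other 4 in this contig. Pgra_v1_contig_3017 was the steadiest of the 10, with a ratio of 1.156 and 185 and 191.5 CPM in P. grandis, 197 and 188 CPM in P. costivenia, and 184 and 170 CPM in P. revoluta. The remaining 6 of these contigs (Pgra_v1_contig_888, Pgra_v1_contig_877, Pgra_v1_contig_2346, Pgra_v1_contig_754, Pgra_v1_contig_816 and Pgra_v1_contig_1349) had means of 181 to 211 CPM and ratios of 1.23 to 1.28.

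The steadiest contig of all was Pgra_v1_contig_15051. Its plants showed 29.8 and 31.1 CPM in P. grandis, 31.1 and 30.4 CPM in P. costivenia, and 31.7 and 31.8 CPM in P. revoluta, a ratio of 1.065. Its CV of 2.39% was below the 2.56% that counting reads alone would give at its depth, and it was the 1 constant contig for which this was so. Next came Pgra_v1_contig_2469, with 52.5 and 49.4 CPM in P. grandis, 53.7 and 53.2 CPM in P. costivenia, and 49.7 and 51.5 CPM in P. revoluta, a ratio of 1.087. The P. grandis and P. revoluta plants overlapped, and both P. costivenia plants lay highest by a small margin.

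Pgra_v1_contig_13339 (mean 16.6 CPM, ratio 1.097), Pgra_v1_contig_10970 (25.6 CPM, 1.098) and Pgra_v1_contig_12301 (16.2 CPM, 1.101) completed the 5 steadiest. All 5 lay well below the most abundant constant contigs. At the other end of abundance, the 5 constant contigs with the lowest means were Pgra_v1_contig_18476, Pgra_v1_contig_21423, Pgra_v1_contig_10682, Pgra_v1_contig_14917 and Pgra_v1_contig_18880, at 11.6 to 13.3 CPM and ratios of 1.14 to 1.28. Counting alone gives a CV of 3.91% to 4.17% at that depth.

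**Figure D2:**
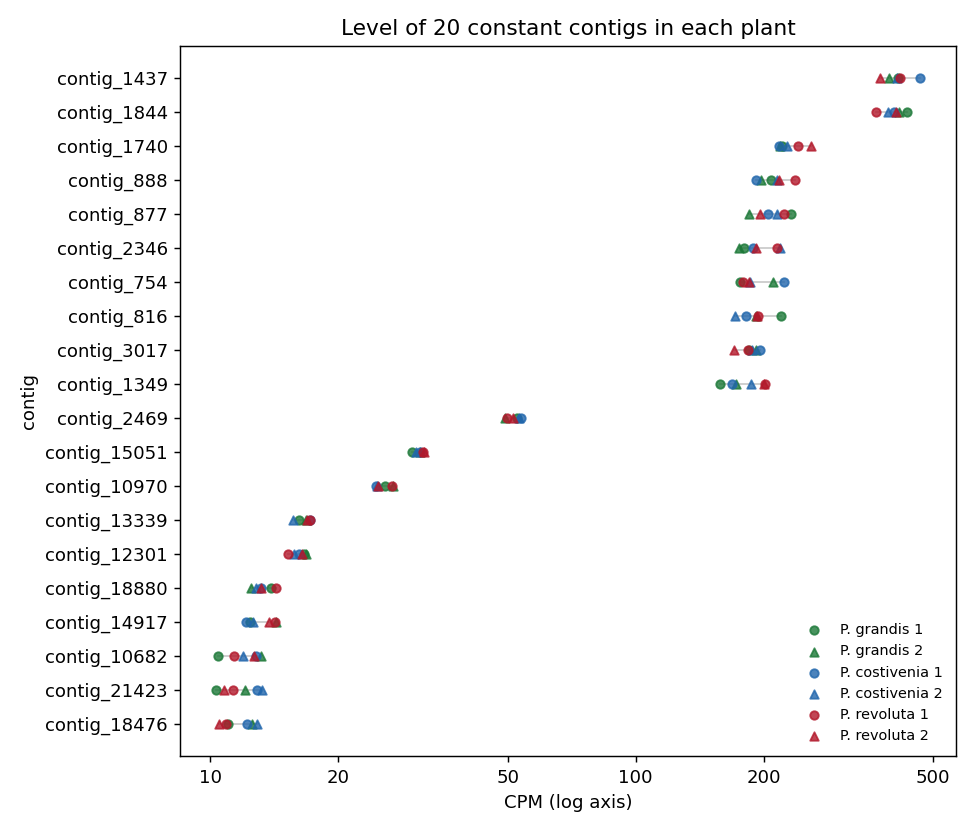
CPM (horizontal log axis) of 20 constant contigs in each of the 6 plants, coloured by species, with circles for plant 1 and triangles for plant 2 and a grey line from the lowest to the highest plant. The upper 10 are the most abundant, from 181 to 414 CPM on average, the narrowest is Pgra_v1_contig_15051 with a ratio of 1.065, and the order of species differs from contig to contig.

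The spread over the plants, which the limit of 1.3 bounds, is given beside counting error to show what depth contributes. The median CV over the 6 plants was 8.08% (range 2.39% to 12.1%), and counting alone would give a median of 2.34%, which covers counting error only because reads are not independent molecules. The observed CV was 3.22 times the counting CV in the median contig, and it was less than 2 times that value in 27 of the 243 contigs. Over the 8064 contigs the median CV was 33.2%, and the median of its quotient with the counting CV was 15.7. The median CV of constant contigs was alike in all classes of level with members, from 7.42% at 200 to 500 CPM to 8.47% at 100 to 200 CPM, while the counting CV fell from 3.53% in the lowest class to 0.937% in the highest.

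Within the limit, pairs of plants differed by similar amounts. Plants of the same species differed by a median of 1.058-fold in P. revoluta, 1.068-fold in P. costivenia and 1.093-fold in P. grandis. Pairs of plants from different species differed by medians of 1.064-fold (P. grandis plant 2 and P. revoluta plant 2) to 1.101-fold (P. grandis plant 1 and P. costivenia plant 1). The value for the 2 P. grandis plants lay within that range.

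No library was the extreme one throughout. P. revoluta plant 1 was the highest library in 63 of the 243 contigs and the lowest in 25, and P. grandis plant 1 was the highest in 55 and the lowest in 56. The other 4 libraries were the highest in 20 to 39 contigs and the lowest in 30 to 50. Over the 8064 contigs, P. grandis plant 1 was the lowest library in 40.8%, so its share of lowest values among the constant contigs (23.0%) was the smaller one. The median deviation of a library from a contig's mean ran from -0.03 (P. costivenia plant 2) to 0.04 (P. revoluta plant 1) on the log2 CPM scale.

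Some constant contigs still separated a species from the other 4 plants without overlap, at a small size. Both P. revoluta plants were higher than all others in 35 of the 243 contigs (14.4%), where 23.3% of the 8064 contigs showed this, and lower in 23 (9.47%, against 18%). Both P. costivenia plants were higher in 18 (7.41%, against 21.9%) and lower in 37 (15.2%, against 20.5%). Both P. grandis plants were higher in 24 (9.88%, against 9.44%) and lower in 15 (6.17%, against 9%). As the rule used these values, nothing is read from the counts. In such contigs, the mean CPM of the species differed from the mean of the other 4 plants by a median of 0.16 to 0.19 in log2, in either direction. The gap between the nearest plants is smaller than this difference of means. Pgra_v1_contig_14600 was an example, with 56.0 and 54.2 CPM in P. grandis, 64.7 and 67.6 CPM in P. costivenia, and 68.7 and 69.3 CPM in P. revoluta. Pgra_v1_contig_4651 was another, with 118 and 115 CPM in P. costivenia against 149 and 141 CPM in P. grandis and 141 and 142 CPM in P. revoluta. In Pgra_v1_contig_10602 it was P. costivenia that was higher, at 27.4 and 27.6 CPM, beside 22.2 and 22.2 CPM in P. grandis and 22.7 and 23.5 CPM in P. revoluta.

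A contig can be constant only if every pair of plants is alike in it, and the pairs differed widely in how many contigs they shared. Of the 8064 contigs, 86.2% were within 1.3-fold between the P. revoluta plants, 80.2% between the P. costivenia plants and 31.8% between the P. grandis plants. P. grandis plant 2 shared 63.6% and 69.5% with the P. revoluta plants, more than with P. grandis plant 1, and 39.7% and 40.6% with the P. costivenia plants. P. grandis plant 1 shared 25.9% to 31.8% with any other plant. Within 1.3-fold between the plants of each of the 3 species at once were 1963 contigs (24.3%), and the 243 constant contigs were 12.4% of those.

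**Figure D3:**
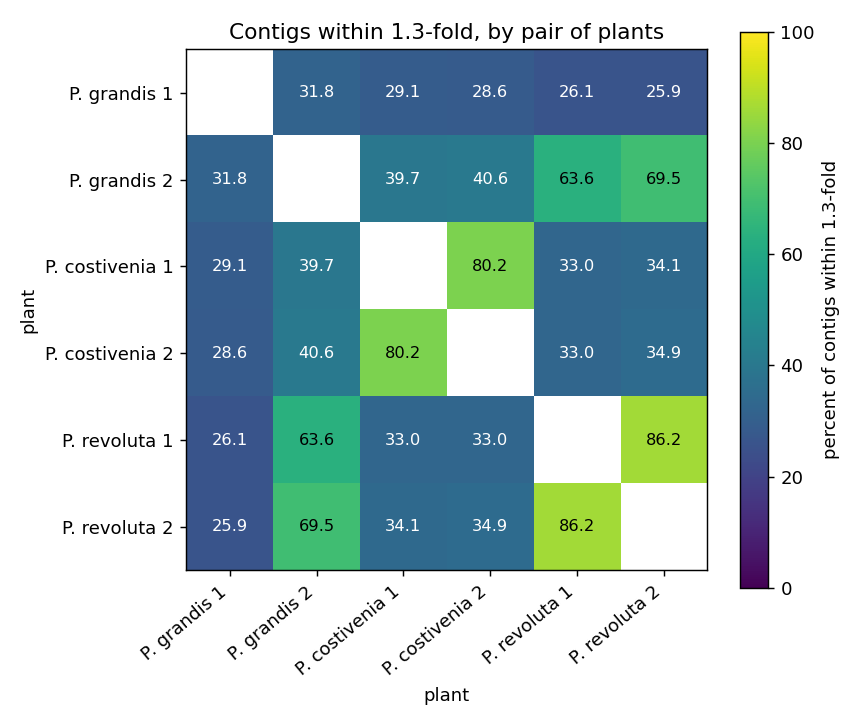
Percentage of the 8064 contigs within 1.3-fold for each pair of plants (both axes list the 6 plants, colour and number give the percentage). The highest values are those of the P. revoluta pair (86.2) and the P. costivenia pair (80.2), and the row of P. grandis plant 1 lies between 25.9 and 31.8.

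A selection on 5 plants does not use the values of the plant left out. It still used the other plant of that species, and each selection but that of 974 contigs used P. grandis plant 1. Plants of the same species were within 1.3-fold in 86.2% (P. revoluta), 80.2% (P. costivenia) and 31.8% (P. grandis) of the 8064 contigs. The shares below depend on this and are a description. Without P. grandis plant 1, 974 contigs were constant in the other 5 plants, and 243 of them (24.9%) met the rule in all 6. Without another plant the numbers were 301 (P. revoluta plant 2), 325 (P. revoluta plant 1), 342 (P. grandis plant 2), 344 (P. costivenia plant 2) and 384 (P. costivenia plant 1), of which 63.3% to 80.7% held in the plant left out. In P. grandis plant 1, 666 of the 974 contigs were lower than the mean of the other plants and 308 were higher, with a median log2 difference of -0.36. It lay over 2-fold lower in 207 and over 2-fold higher in 25, together 23.8%. In any other plant left out, 0 to 2 contigs (0% to 0.585%) lay that far away. Of the contigs with at least 10 CPM in the other 5 plants that were not constant there, 41.2% lay over 2-fold away in P. grandis plant 1. The same share was 3.59% for P. grandis plant 2, 15.6% and 15.5% for the P. costivenia plants, and 12.1% and 11.3% for the P. revoluta plants. Contigs that are not constant vary in the plants that give the mean, which by itself favours larger shares.

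The farthest of these contigs, chosen after their values were seen, show the size of the gap. Pgra_v1_contig_4898 reached 20990 and 21246 CPM in P. costivenia, 20324 and 25198 CPM in P. revoluta, and 20086 CPM in the second plant of P. grandis, a ratio of 1.25 over these 5 plants. In P. grandis plant 1 it stood at 44.5 CPM, from 2250 counts, which was 485-fold below the mean of the others. In the opposite direction, Pgra_v1_contig_4136 stood at 15.4 to 19.7 CPM in the other 5 plants and at 97.0 CPM in P. grandis plant 1, 5.84-fold above their mean.

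**Figure D4:**
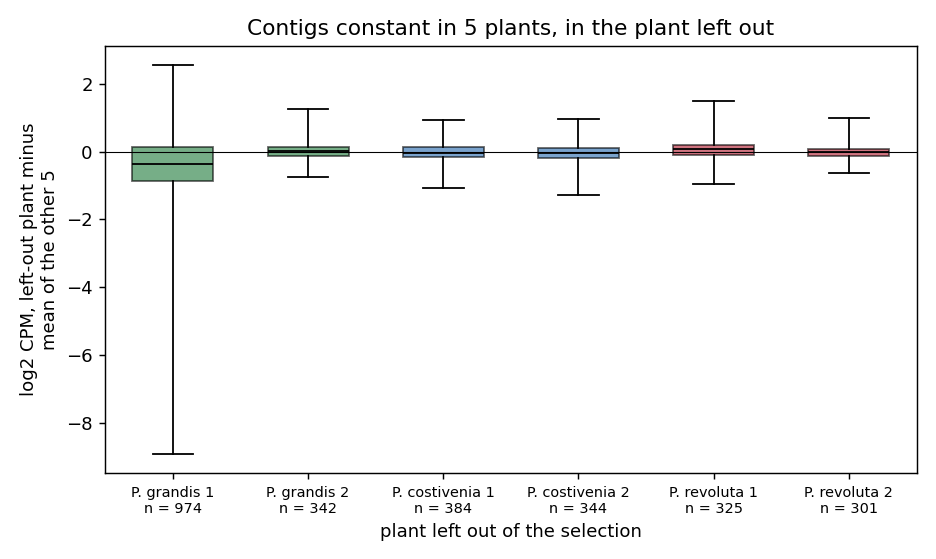
Log2 CPM of the plant left out minus the log2 of the mean CPM of the other 5 (vertical axis) for contigs constant in those 5, by plant left out (horizontal axis, with the number of contigs). Boxes span the quartiles with the median as a line and whiskers reach the lowest and highest contig: P. grandis plant 1 has a median of -0.36 over 974 contigs and reaches -8.92, and the other 5 plants have medians of -0.03 to 0.07.

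Leaving out both plants of a species gave 620 contigs constant in the 4 hyperaccumulator plants, 1173 constant in P. grandis and P. revoluta, and 1490 constant in P. costivenia and P. revoluta. Only the selection that gave 1490 was without P. grandis plant 1. Leaving out that plant alone moved the number from 243 to 974. No likeness of species is therefore read from these numbers. The mean of the P. revoluta plants lay over 2-fold below the hyperaccumulators in 11 of the 620 contigs (1.77%) and over 2-fold above in 1 (0.161%). Among the 8015 contigs that had at least 10 CPM in the hyperaccumulators but were not constant there, the shares were 15.4% and 6.50%. Those contigs vary in the plants that give the mean, which by itself favours larger shares, so nothing is read from the difference. Pgra_v1_contig_4984, the lowest of the 620, showed 14.9 and 11.9 CPM in P. grandis, 14.3 and 15.1 CPM in P. costivenia, and 0.587 and 1.21 CPM in P. revoluta. The highest, Pgra_v1_contig_1511, stood at 78.5 to 97.2 CPM in the hyperaccumulators and at 240 and 150 CPM in P. revoluta.

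In P. costivenia, 110 of the 1173 contigs constant elsewhere lay over 2-fold lower (9.38%) and 64 over 2-fold higher (5.46%), beside 20.7% and 7.54% of the 7935 contigs that were not constant elsewhere. Pgra_v1_contig_215 had levels of 73.5 and 66.9 CPM in P. grandis and of 70.2 and 71.1 CPM in P. revoluta, and had 0 and 1 counts in P. costivenia, where 3 counts over both plants would be 0.0316 CPM. Pgra_v1_contig_8298 stood at 10.3 to 13.0 CPM in P. grandis and P. revoluta and at 56.3 and 133 CPM in P. costivenia. In P. grandis, 41 of the 1490 contigs lay over 2-fold lower (2.75%) and 59 over 2-fold higher (3.96%), beside 8.48% and 5.40% of the 7594 contigs not constant in the other species. Here too the contigs that were not constant vary in the plants that give the mean, so nothing is read from the differences. Pgra_v1_contig_22103 was at 28.5 to 33.0 CPM in P. costivenia and P. revoluta and at 1.98 and 14.975 CPM in P. grandis. Pgra_v1_contig_950 was at 55.7 to 63.0 CPM there and at 494 and 104 CPM in P. grandis, so that plant 1 was the farther one in both contigs. These contigs were chosen after their values were seen, as the extremes of each comparison. Whether a difference of sequence from the P. grandis reference lowered such counts was not tested.

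The constancy belongs to the scale on which it was measured. TMM, which aims to scale libraries so that the typical contig is level, used factors from 0.883 (P. costivenia plant 1) to 1.12 (P. grandis plant 2). On that scale, 224 contigs met the rule, and 69 of them were among the 243, which is 30.8% of the first list and 28.4% of the second. The 243 contigs had a median ratio of 1.37 on the TMM scale (range 1.11 to 1.63), and 202 of them stayed within 1.5-fold. With the size factors of DESeq2, 181 contigs met the rule, 40 of them among the 243 (22.1% and 16.5%).

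The rule was met on all 3 scales by 40 contigs, with means of 13.2 to 154 CPM and a median of 39.4 CPM. They included 4 of the contigs chosen by rule, namely Pgra_v1_contig_1042, Pgra_v1_contig_10970, Pgra_v1_contig_11962 and Pgra_v1_contig_14917. The steadiest over the 3 scales was Pgra_v1_contig_14917, with ratios of 1.18 by library totals, 1.12 by TMM and 1.195 by size factors. It showed 12.4 and 14.3 CPM in P. grandis, 12.1 and 12.6 CPM in P. costivenia, and 14.2 and 13.7 CPM in P. revoluta. None of the 10 most abundant constant contigs was among the 40.

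The model of species over all contigs (edgeR's quasi-likelihood test with Benjamini-Hochberg adjustment at 0.05, TMM-scaled) gave the size of species differences in the constant contigs with their error. All 243 passed its filter on low counts. For P. costivenia against P. revoluta, 0 of the 243 were called, where 17.6% of the 35660 contigs tested were. For P. grandis against P. costivenia, 0 were called, where 2.68% of all were, and for P. grandis against P. revoluta, 0 of the 243 and 0 of all contigs were called (0%). DESeq2 also called 0 of the 243 in each contrast, where it called 31.9%, 18.8% and 13.3% of all contigs with an adjusted p, in the same order. At an unadjusted p of at most 0.05 in edgeR, 0 of the 243 were found in each contrast, against 39.2%, 26.2% and 20.5% of all contigs. The rule used the same plants, so nothing is read from these counts.

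The fold changes of the constant contigs on the TMM scale were not centred on 0. For P. costivenia against P. revoluta, their median log2 fold change was 0.27 (range -0.02 to 0.57), where the median of all contigs tested was -0.001, and 241 of the 243 were above 0. For P. grandis against P. costivenia, the median was -0.22 (range -0.54 to 0.08), with 236 below 0, where all contigs had a median of 0.24. For P. grandis against P. revoluta, it was 0.05 (range -0.27 to 0.39), beside 0.13 for all. With library totals alone, the same medians were -0.03, 0.02 and -0.001, and all contigs then had medians of -0.29, 0.48 and 0.08. On either scale, the median of the constant contigs therefore lay above that of all contigs for P. costivenia against P. revoluta. It lay below that of all contigs tested for P. grandis against P. costivenia and for P. grandis against P. revoluta. Beside the 8064 contigs with at least 10 CPM in every library, by log2 quotients of species mean CPM, the order was different. For P. grandis against P. revoluta, their median was -0.13, and that of the 243 lay above it at -0.004. For P. grandis against P. costivenia, the medians were 0.03 and 0.02, and for P. costivenia against P. revoluta -0.09 and -0.03.

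The median SE of these TMM-scaled fold changes was 0.27 in each of the 3 contrasts. It comes from a spread shared by the 3 species. When P. grandis plant 1 was left out, the median SE for P. costivenia against P. revoluta was 0.14. When P. grandis plant 2 was left out instead, it was 0.17. The highest log2 fold change for P. costivenia against P. revoluta was that of Pgra_v1_contig_7663, at 0.57 (SE 0.29, adjusted p = 0.202 by edgeR), with 39.6 and 35.0 CPM in P. costivenia, 30.7 and 31.0 CPM in P. revoluta, and 39.1 and 31.3 CPM in P. grandis. The lowest was that of Pgra_v1_contig_1042, at -0.02 (SE 0.28, adjusted p = 0.960 by edgeR), with 82.6 and 87.6 CPM in P. costivenia, 104.7 and 107 CPM in P. revoluta, and 95.03 and 96.9 CPM in P. grandis. The P. costivenia and P. revoluta plants did not overlap in either contig, in opposite directions in CPM. For P. grandis against P. revoluta, the extremes were Pgra_v1_contig_6036 at 0.39 (SE 0.25, adjusted p = 0.406 by edgeR) and Pgra_v1_contig_14600 at -0.27 (SE 0.26, adjusted p = 0.554 by edgeR). For P. grandis against P. costivenia, they were Pgra_v1_contig_4651 at 0.08 (SE 0.31, adjusted p = 0.885 by edgeR) and Pgra_v1_contig_10602 at -0.54 (SE 0.25, adjusted p = 0.240 by edgeR).

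Without P. grandis plant 1, edgeR called 17 of the 243 contigs higher in P. costivenia than in P. revoluta and 3 lower in P. grandis than in P. costivenia. The latter contrast then rested on a single P. grandis plant, assumed to vary like the plants of the other species. Of all contigs tested in these fits, 25.7% and 11.1% were called in those directions. No other fit that left out a plant called any of the 243.

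**Figure D5:**
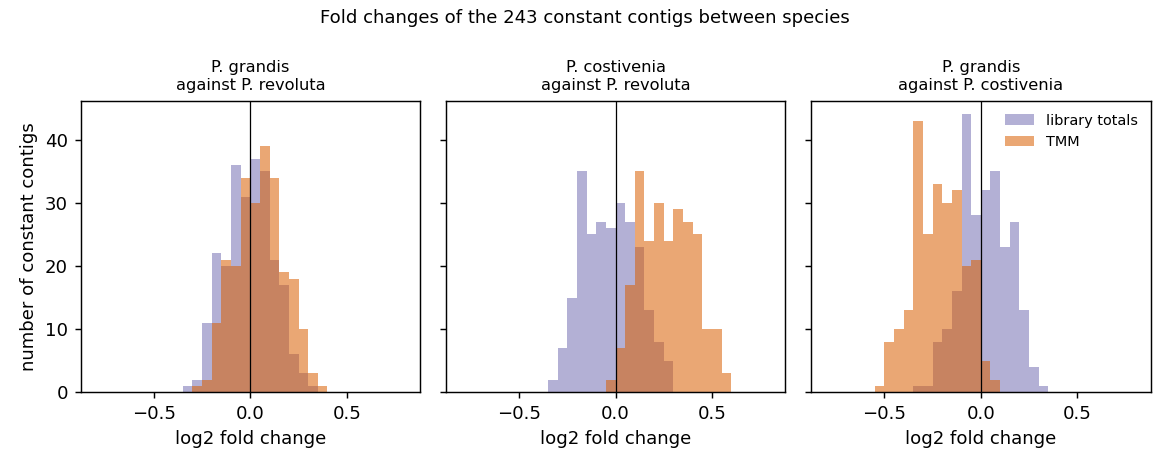
Number of the 243 constant contigs (vertical axis) by log2 fold change (horizontal axis) in each of the 3 contrasts between species, with libraries scaled by their totals (purple) or by TMM (orange). By totals the medians are -0.001, -0.03 and 0.02 from left to right, and by TMM they are 0.05, 0.27 and -0.22.

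In the running numbers of the contigs, the constant ones lay between 98 and 22620, and 214 of the 243 had a number up to 15000. Low numbers went with high counts (Spearman's rho -0.748 between number and total count, across all 45143 contigs, which are not independent replicates), and no source used here says how the numbers were given. Among the contigs with at least 10 CPM in every library, 2.58% of those numbered up to 5000 were constant, 3.24% of the next 5000, 3.52% of the third and 3.42% of the fourth. In the fifth block 2 of 168 were constant (1.19%), and above it 0 of 17. The 243 contigs held 3 pairs with consecutive numbers. An assembly can break 1 gene into several contigs, so the 243 contigs need not stand for as many genes.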

How the data were processed

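Leaf RNA of single plants, stabilised in RNAlater and freed of DNA, went into stranded mRNA libraries, per the labels' protocols. The authors deposited raw read counts for each contig, per the file headers, and the series text names a de novo transcriptome of P. grandis as the reference. The programs for assembly, alignment and counting, the use of strand and the handling of reads that fit several contigs were not given in the sources used here. Counts of near-identical contigs are therefore uncertain.

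CPM was the count over the library total times 1000000. The counting CV is that of Poisson counts at the contig's mean level. Contigs were kept by filterByExpr (minimum count 10, minimum total 15), scaled by TMM and fitted with species as the factor over all 6 libraries (edgeR 4.0.16, glmQLFit robust and glmQLFTest, two-sided, R 4.3.3), with 3 residual degrees of freedom and 2.43 prior ones in the median. The SE is the absolute log2 fold change over the square root of F. Alternatives were DESeq2 1.42.0 on all contigs, library totals, no filter, plant number as a block, each plant left out, and other limits of the rule. Both libraries of each species were compared, and their counts differed beyond sampling noise (mean chi-square per contig 66.1 to 760, with about 1 due to sampling). This cannot tell separate plants from separate libraries of 1 plant. Each library counted as its own sample because the labels give separate plants.

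Contigs were named by rule: the 10 highest and 5 lowest by mean CPM, the 5 lowest ratios, those at the limits and the extremes of each contrast. The constant contigs and all lists were chosen with earlier results of these data known.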

Additional observations from a re-analysis of the deposited data

How the results depend on the processing

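The number of constant contigs, 243, was 268 at a limit of 5 CPM, 181 at 20 CPM, 224 with TMM and 181 with DESeq2 size factors. It was 76 and 834 at ratios of 1.2 and 1.5, and 4, 2684 and 6234 at the ratios of 1.1, 2 and 4, which were added after the data were seen. Leaving out 1 plant gave 301 to 974, and leaving out both plants of P. grandis, P. costivenia or P. revoluta, also added later, gave 1490, 1173 and 620. Fewer libraries make the rule easier to meet by construction, and P. grandis plant 1 was absent from the selections that gave 974 and 1490. Over all contigs, the calls in edgeR (0 for P. grandis against P. revoluta, 6281 for P. costivenia against P. revoluta, 956 for P. grandis against P. costivenia) were 4942, 11884 and 6846 in DESeq2. Without the filter, the first was 16. Leaving out 1 plant gave 0 to 15201, 0 to 17534 and 0 to 10495. With a replicate block for plant number, 0, 976 and 0 contigs were called; the numbers name separate wild plants, and the differences between plants 1 and 2 correlated at 0.111, -0.445 and -0.0415 between species, so the block has no basis in the design. The cause of these moves was not tested. Of the constant contigs, 0 were called in each contrast, 0 under each alternative with all plants, and 0 to 17 (P. costivenia against P. revoluta), 0 to 3 (P. grandis against P. costivenia) and 0 (P. grandis against P. revoluta) without 1 plant. For the 29 constant contigs named, 854 of 870 alternative log2 fold changes lay within 1 SE of the main value, and the largest move was 0.295. The median SE of the 243 was 0.27, so a move shared by many contigs can lie within it. With library totals alone, their median for P. costivenia against P. revoluta was -0.03, beside 0.27 in the main fit. Above 0 were then 106 of the 243, beside 241 in the main fit. Depth gives the least abundant constant contig a counting CV of 4.17%.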
